A study of Mus musculus with 5 samples.

Results

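Transcripts of 9 genes of the BMP pathway and its Id targets, out of 22180 genes with a row of their own in the deposited table, were followed across the 5 days on which macrophages became osteoclasts: the ligand gene Bmp2, the receptor genes Bmpr1a and Bmpr2, the signal transducer genes Smad1 and Smad5, the inhibitory Smad6, and the Id genes Id1, Id2 and Id3. They were chosen by symbol, taking array rows annotated to 1 gene only, and each had exactly 1 such row. A further row that names Bmpr2 beside another gene was not used. The cells were bone marrow-derived macrophages of wild-type mice aged 10 weeks, cultured on plastic with 20 ng/ml M-CSF, which sustains macrophages, and 30 ng/ml RANKL, which drives osteoclast formation. RNA was taken at day 0 (macrophages), at days 1, 2 and 3 (differentiating cells) and at day 5 (cells labelled mature osteoclasts), with 1 Affymetrix array per day made from 5 ng of total RNA. The strain, the number of mice and whether they were pooled were not stated in the labels. M-CSF and RANKL were shared by all later days, and a culture without RANKL was not analysed here, so time in culture and RANKL cannot be told apart.

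Bone morphogenetic proteins (BMPs) are secreted ligands of the TGF-beta superfamily, named for their ability to induce bone. A BMP dimer brings together type I receptors such as BMPR1A and the type II receptor BMPR2, the type I receptor phosphorylates SMAD1 and SMAD5, and these enter the nucleus with SMAD4 to switch on targets, among which the Id genes and the feedback inhibitor Smad6 are the textbook examples. Id proteins have a helix-loop-helix dimerisation domain but no DNA-binding basic region, and so hold E proteins and related factors off DNA. In osteoclast precursors they are known as brakes on differentiation.

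Promoters of 3 of the 7 members that were lower at day 1 than at day 0 are shown. The letters of known SMAD sites can thus be read beside the values. The sequences are RefSeq's (GRCm38.p6), 250 bases before to 30 bases after the annotated start, each 5' to 3' on the gene's strand, and 7 of the 9 members had an entry in that table. Id1 and Bmp2 were not among them. Capitals mark GTCT or its reverse complement AGAC, the SMAD box, and GGCGCC, a GC-rich core known from BMP-responsive elements. Smad6 is read from chr9:64022030-64022309 (minus strand), Id2 from chr12:25096063-25096342 (minus strand) and Id3 from chr4:136143572-136143851 (plus strand).
Smad6: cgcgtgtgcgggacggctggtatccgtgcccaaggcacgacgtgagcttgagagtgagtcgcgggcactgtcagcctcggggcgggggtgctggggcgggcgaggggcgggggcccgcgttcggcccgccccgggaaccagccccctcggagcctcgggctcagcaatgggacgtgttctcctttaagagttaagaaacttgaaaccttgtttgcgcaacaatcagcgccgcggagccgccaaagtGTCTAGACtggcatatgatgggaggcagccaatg
Id2: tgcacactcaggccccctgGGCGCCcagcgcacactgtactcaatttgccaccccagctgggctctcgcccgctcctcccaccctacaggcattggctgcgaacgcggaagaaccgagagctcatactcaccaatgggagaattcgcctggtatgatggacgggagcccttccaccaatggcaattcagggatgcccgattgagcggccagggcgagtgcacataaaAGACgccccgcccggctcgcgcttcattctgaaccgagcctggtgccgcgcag
Id3: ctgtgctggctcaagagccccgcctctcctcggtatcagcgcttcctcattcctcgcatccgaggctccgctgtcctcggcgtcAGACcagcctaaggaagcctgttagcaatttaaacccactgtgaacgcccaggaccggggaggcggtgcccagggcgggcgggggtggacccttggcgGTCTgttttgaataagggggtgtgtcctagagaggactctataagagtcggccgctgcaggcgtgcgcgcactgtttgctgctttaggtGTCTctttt

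The Smad6 promoter holds GTCTAGAC, where GTCT and AGAC abut as a palindrome, with its first base at position -4 from the start. This 8-letter run occurred in 63 of 32851 promoter entries of the same 280 bases, or 0.192%. The Id2 window holds GGCGCC at -231, a run found in 10.9% of entries, and a SMAD box at -23. The Id3 window has 3 SMAD boxes, at -166, -68 and 22, and 0 copies of GGCGCC. Single SMAD boxes on either strand stood in 86.2% of all entries, so their presence separates few promoters. Bmpr2 and Smad1, also lower at day 1 but not printed, had 0 SMAD boxes in their windows. The Bmpr2 window held GGCGCC at -105, and that of Smad1 held 0 copies. Of the members not lower at day 1, Bmpr1a (tied) had GGCGCC at -198 and a SMAD box at 8. Smad5 (0.13 above day 0) had a SMAD box in each of its entries and GGCGCC in part of them. A link between these letters and the day 1 values was not tested. The E-box CANNTG, the site of E proteins, was in the Smad6 window at 8 and in the Id2 window at -196, but had 0 matches in that of Id3, against 70.1% of all entries. Positions skip 0, the palindromic motifs read alike on both strands, and these matches are letters in a window, not measured sites.

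Values below are RMA values on the log2 scale as deposited, and differences are log2 differences between 2 single arrays, the later day minus the earlier. A single array per day leaves the variation between cultures unknown, and no test was run. A gene counted as higher or lower at a difference of 1 or more, which is 2-fold, and as measured when its 5-array mean reached 4.89, the median over all rows, which 12049 genes did. Of the 9 members 8 were measured and Bmpr1a was not. Bmp2, with a mean of 4.93, passed by 0.05 and only through its later days. As a yardstick, the disagreement within pairs of rows of one gene was taken over 426 genes. The SD per row was 0.42 for day 5 against day 0 and 0.33 for day 1 against day 0. Array error common to both rows cancels in it, and the spread between cultures is not included. Array medians lay between 4.88 and 4.92. An alternative scaling used below centred arrays on the reference gene level, the median value of 13 reference genes. That level rose by 0.58 from day 0 to day 5, although the median difference of these genes was 0.03. At day 5, 2 of them were at least 2-fold higher than at day 0 and 0 lower. Brightness differs by probe, so levels are compared within a gene and not between genes.

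Markers of the labelled cell types were read beside the members. All 10 osteoclast markers listed were at least 2-fold higher at day 5 than at day 0, beside 6.78% of all measured genes. Their mean level went from 6.09 to 11.66 log2 units. The 10 macrophage markers had mean levels of 10.82 at day 0, 9.33 at day 1 and 9.68 at day 5. At least 2-fold lower than day 0 were 6 at day 1 and 4 at day 5, beside 4.17% and 6.56% of all measured genes. Of 11 stromal and osteoblast markers with a row, 3 were measured: Dcn was higher at day 1 (3.26) and day 5 (1.93), and Col1a1 (0.19) and Pdgfrb (0.00) were neither at day 5. In a bulk sample, fewer cells of a type and less RNA per cell cannot be told apart.

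**Figure D1:**
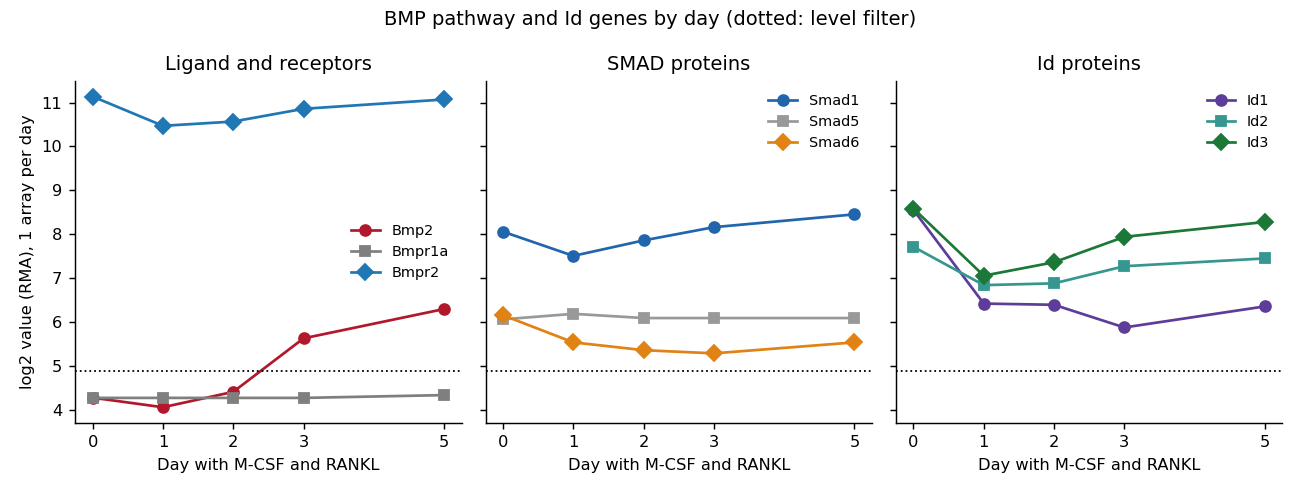
log2 value (RMA) of the 9 genes at days 0, 1, 2, 3 and 5, 1 array per day, with ligand and receptors, SMAD proteins and Id proteins in separate panels and the level filter of 4.89 dotted. Bmp2 lies above the filter from day 3 and reaches 6.30, Id1 drops from 8.55 to 6.42 at day 1 and stays low, and Id3 drops and returns to 8.28.

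Bmp2, the ligand, was low in the macrophages and had the largest increment of any member. Its log2 value was 4.28 at day 0, 4.06 at day 1, 4.41 at day 2, 5.63 at day 3 and 6.30 at day 5. The first 3 arrays lay below the level filter and the last 2 above it. The day 5 value was 2.02 above day 0, a 4.06-fold difference, and 2.24 above day 1. RMA compresses differences near background, so the fold can be understated. At day 5, 6.78% of measured genes were at least 2-fold higher, a share that says nothing of Bmp2 itself, which passed the filter through the days when it was high. Over single steps, 1.22 of its difference came between days 2 and 3 and 0.67 between days 3 and 5. In the last step 0.158% of measured genes passed 2-fold higher, and 0 members did. Stromal cells also make BMP2. The stromal marker Dcn, a proteoglycan gene, had log2 values of 5.20, 8.45, 8.44, 7.99 and 7.13 over the 5 days, highest at day 1 and 1.93 above day 0 at day 5. Most other stromal and osteoblast markers lay below the filter, and the part of such cells in the Bmp2 values was not tested.

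The other ligand genes gave little signal. Of 14 BMP and GDF ligand genes in the list, 2 were measured, Bmp2 and Gdf5, and Gdf5 stayed between 5.19 and 5.24. Bmp6, which macrophages can express, was at 4.80 at day 0 and between 3.69 and 3.88 afterwards, all below the filter. Bmp4 lay between 4.08 and 4.29. For genes this near background a small difference could not have been seen.

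The receptors differed in what could be read from them. Bmpr1a, the type I receptor gene, held 4.27 on the arrays of days 0 to 3, to the sixth decimal, and 4.34 at day 5, all below the filter, so its row carried no usable signal here. Bmpr2, encoding the type II receptor, had log2 values of 11.14, 10.47, 10.57, 10.86 and 11.07. It was lowest at day 1 (-0.67, 1.59-fold lower) and came back to within -0.07 of day 0 by day 5. That dip was less than 2-fold but larger than the yardstick. From day 0 to day 1, 988 measured genes had a larger decrement, whether or not they later came back. Acvr1, another type I receptor gene of the BMP branch, did the opposite at day 1, with log2 values of 7.82, 8.55, 8.16, 7.39 and 7.81. Its lowest array was day 3 (-0.43 from day 0).

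Among the SMAD genes, Smad1 dipped and recovered, Smad6 was lower on every later day, and Smad5 gave nearly constant values. Smad1 had log2 values of 8.06, 7.51, 7.86, 8.16 and 8.45. Day 1 was its lowest array (-0.55) and day 5 its highest, 0.95 above day 1. Its day 5 value was 0.39 above day 0, within the yardstick, and 0.19 below it (-0.19) with arrays centred on the reference gene level. Smad5 held 6.06 at day 0, 6.19 at day 1 and 6.09 on the last 3 arrays, a span under the yardstick. Identical values on 3 or more arrays occurred in 16.5% of measured genes and are a property of the RMA summary, so the flat line of Smad5 is not evidence of a constant transcript.

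Smad6, the feedback inhibitor that keeps SMAD1 and SMAD5 from being activated, had log2 values of 6.15, 5.54, 5.36, 5.29 and 5.54. Day 0 was its highest array, and the lowest point came at day 3 (-0.87, 1.82-fold lower). At day 5 it was at -0.62, or 1.53-fold lower, and its values at days 1 and 5 were identical. It missed the 2-fold size in each comparison with day 0. Centring arrays on the reference gene level, which lowered every gene by 0.58 at day 5 against day 0, put it at -1.20. Smad7, the general inhibitory SMAD, took another course, with 6.95 at day 0, a highest value of 7.34 at day 2 and 6.60 at day 5. The shared partner Smad4 stayed between 8.59 and 8.92. The TGF-beta branch SMAD gene Smad3 was at 5.88 at day 0 and at 5.19 on each later array, while Smad2 was between 8.97 and 9.32. Smad9, the third BMP-branch transducer, was at 3.85 throughout, below the filter. Of 7 measured SMAD genes, 0 passed 2-fold at day 5, beside 13.3% of all measured genes. With 7 genes, a count of 0 is near that share. Their median was -0.24, beside 0 for all measured genes.

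The Id genes were the members most different between day 0 and day 1. All 3 measured Id genes were lower at day 1, 2 of them by at least 2-fold. Those 2, Id1 and Id3, were the only members counted in that comparison, in which 4.17% of measured genes were at least 2-fold lower and 2.91% at least 2-fold higher. With arrays centred on the reference gene level Id2 was counted as well (-1.04). Macrophage markers were lower in the same step, all 10 of them below day 0 with a median of -1.25, and their part in the Id values was not tested. Id4, the fourth family member, was below the filter at 3.59 on days 0 to 3 and 3.52 at day 5.

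Id1 had log2 values of 8.55, 6.42, 6.39, 5.88 and 6.36. The day 0 array stood far above the other 4, which lay between 5.88 and 6.42. Day 1 was 4.38-fold below day 0 (-2.13), and 47 measured genes had a larger decrement. At day 3 the difference was -2.68, or 6.39-fold, and 30 measured genes had a larger one. At day 5 it was -2.20, where 6.56% of measured genes were at least 2-fold lower. Against day 1 the day 5 array was at -0.06, so nearly all of its net difference lay in the first step. Between days 2 and 3 it was lower by a further -0.52, and between days 3 and 5 higher by 0.48.

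Id3 had log2 values of 8.59, 7.06, 7.36, 7.94 and 8.28. It was lowest at day 1, 2.89-fold below day 0 (-1.53), and higher at each later sampling. At day 2 it was still 2.34-fold lower (-1.22), at day 3 it was at -0.65, and at day 5 at -0.31, within the yardstick. Against day 1 the day 5 value was 1.22 higher, where 6.30% of measured genes were at least 2-fold higher. Bmp2 and Id3 were the 2 members counted there, and Id3 missed the size with arrays centred on the reference gene level.

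Id2, known to bind MITF and to restrain osteoclast genes, had log2 values of 7.71, 6.84, 6.88, 7.27 and 7.45. It was lowest at day 1, 1.83-fold below day 0 (-0.87), which missed 2-fold but exceeded the yardstick, and it was at -0.26 at day 5. Its profile, each gene centred on its own mean, lay closer to that of Bmpr2 (Euclidean distance 0.20 log2 units over the 5 arrays) than to that of Id3 (0.54). This distance depends on the size of the differences. The range was 0.87 for Id2, 0.67 for Bmpr2 and 1.53 for Id3, and each was lowest at day 1 and higher at each later sampling. The differences of Id1 and Id3 from day 0 lay 0.60 apart at day 1 and 1.89 apart at day 5, with Id1 the lower each time. These comparisons share the day 0 array and are not independent of each other.

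**Figure D2:**
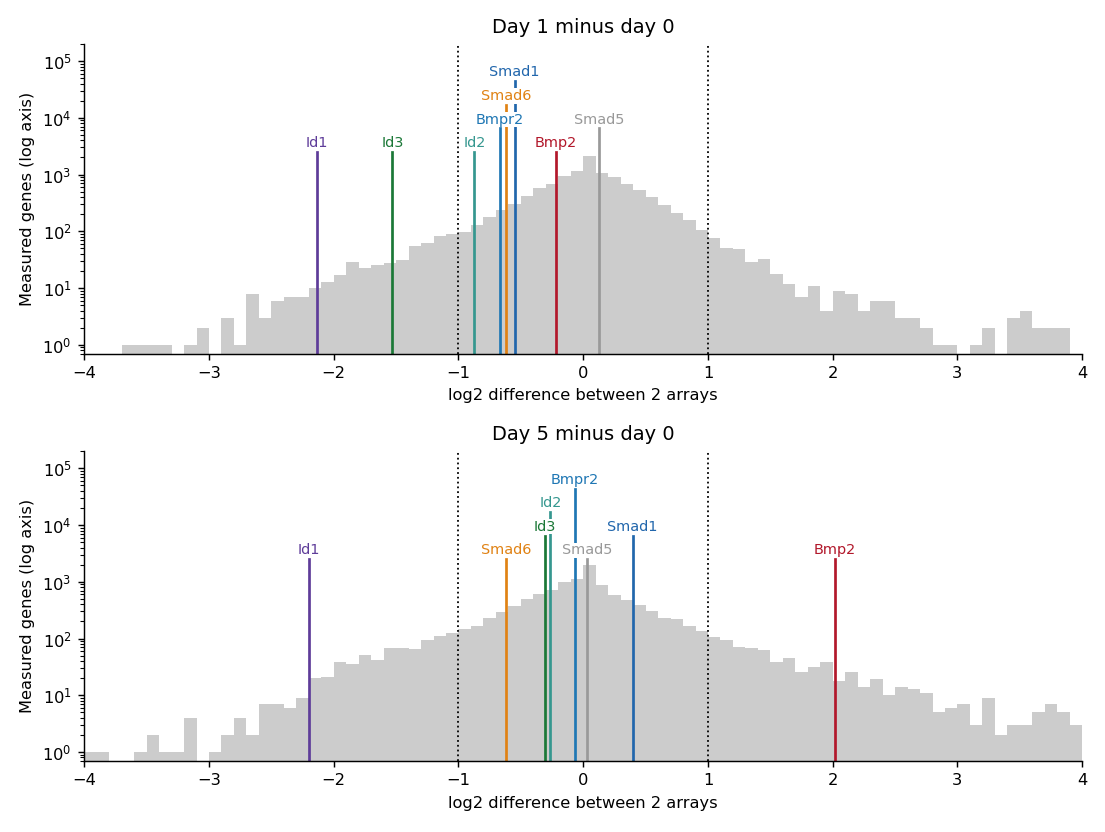
log2 differences of the 8 measured members (coloured lines) over the distribution of all 12049 measured genes (grey bars, log axis), for day 1 minus day 0 above and day 5 minus day 0 below, with the 2-fold size dotted and genes beyond a size of 4 outside the axis. Id1 lies at -2.13 and -2.20 in the 2 panels, Id3 moves from -1.53 to -0.31, and Bmp2 from -0.22 to 2.02.

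Counted over all members, 2 passed 2-fold downwards at day 1 and 0 upwards, and at day 5 there were 1 lower (Id1) and 1 higher (Bmp2). The share of measured genes counted in either direction was 7.09% at day 1 and 13.3% at day 5. Of the members 7 lay below day 0 at day 1, Bmpr1a was tied and Smad5 was above by 0.13, while 43.2% of measured genes lay below. With arrays centred on the reference gene level Smad5 was also below (-0.05). At day 2 the members counted were again Id1 and Id3, both lower (5.25% of measured genes), and at day 3 Id1 was lower and Bmp2 higher (7.50% and 7.29%). Between days 1 and 2, 0 members passed 2-fold (3.02% of measured genes), and between days 2 and 3 Bmp2 alone did, upwards (2.08%). Between days 3 and 5, 0 members passed 2-fold (0.274% of measured genes). Of the 8 measured members 7 were above their day 3 value by less than that and Smad5 was tied, beside 45.8% of measured genes above.

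**Figure D3:**
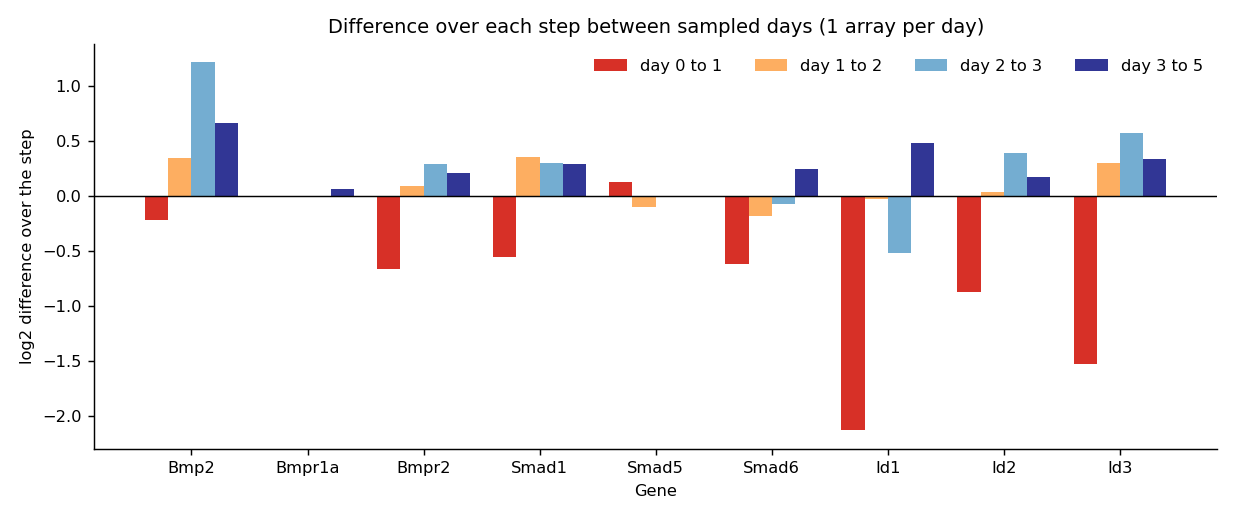
log2 difference over each of the 4 steps between sampled days for the 9 genes, from 1 array per day. The step from day 0 to day 1 is the deepest for Id1 (-2.13), Id3 (-1.53), Id2 (-0.87), Bmpr2 (-0.67), Smad6 (-0.62) and Smad1 (-0.55), and the tallest bar is that of Bmp2 between days 2 and 3 (1.22).

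The 3 genes nearest in profile were found for each member that passed 2-fold against day 0, by Euclidean distance between centred profiles over the 5 arrays. Nearest to Id1 were Notch1 (0.16 log2 units), which encodes a Notch receptor, the cofilin phosphatase gene Ssh2 (0.27) and the ETS factor gene Etv5 (0.30). Notch1 had log2 values of 9.10, 7.10, 7.06, 6.63 and 7.09, with a step of -2 at day 1, beside -2.13 for Id1. Its likeness to Id1, the lowest day included, follows from its being picked as the nearest profile. Nearest to Id3 were Cd84 (0.16), a SLAM family receptor of leukocytes, the glycosyltransferase gene Gbgt1 (0.24) and the kinase gene Nuak1 (0.24). Cd84 had log2 values of 11.07, 9.58, 9.71, 10.41 and 10.85. Nearest to Bmp2 were Olfr920 (0.34), annotated as an olfactory receptor, Mfge8 (0.37), whose secreted product bridges apoptotic cells to phagocytes, and Sugct (0.39), a mitochondrial CoA transferase gene. Mfge8 had log2 values of 7.68, 7.24, 7.87, 9.0 and 9.32. Closeness over 5 points describes these arrays only.

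**Figure D4:**
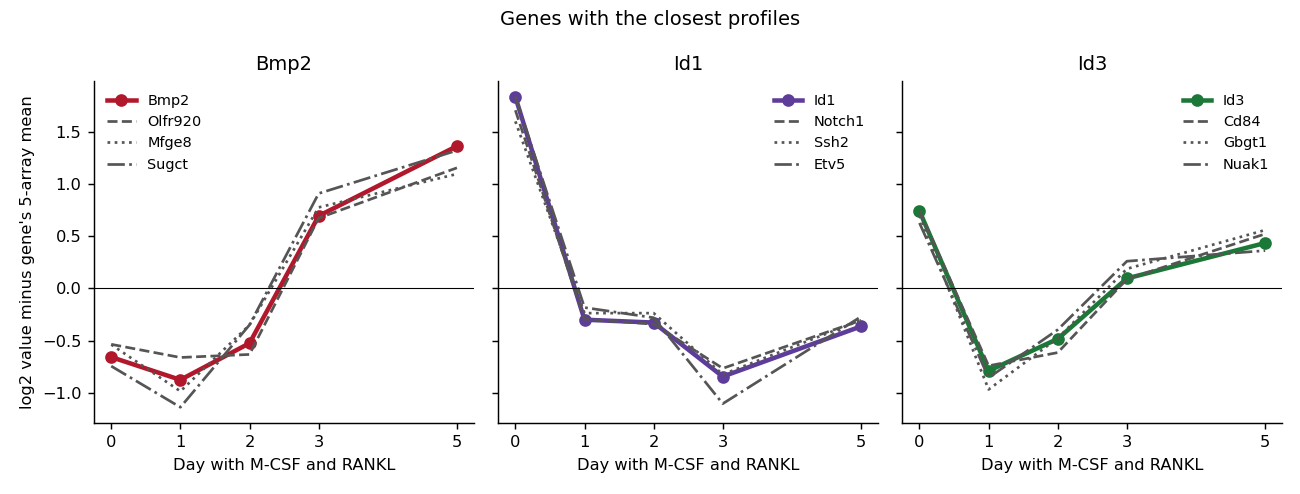
log2 values of Bmp2, Id1 and Id3 (coloured) and of the 3 measured genes with the closest profiles (grey), each minus its own mean over the 5 arrays. The grey lines follow the coloured one within 0.39 log2 units of Euclidean distance in every panel, and the lowest array is day 1 for Bmp2 and Id3 and day 3 for Id1.

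The wider pathway was read from 7 lists of ligands, receptors, SMADs, antagonists, intracellular regulators, targets and basic helix-loop-helix factors, which hold the 9 members too. Of 88 genes with a row 54 were measured. At day 5, 5 were at least 2-fold higher and 6 lower, 20.4% beside 13.3% of all measured genes. At day 1, 3 were higher and 8 lower, 20.4% beside 7.09%. Members, chosen with earlier results of these data known, made up 2 of the lower genes at day 1 (Id1 and Id3). The basic helix-loop-helix list gave 2 of the higher and 3 of the lower genes at day 1. At day 5 that list gave 1 higher and 2 lower, and the members gave 1 and 1. These shares therefore do not describe BMP genes outside the members. The median difference of the 54 was -0.17 at day 1 and -0.11 at day 5, beside 0 for all measured genes in both. The split at day 5 was 3 higher and 14 lower with arrays centred on the reference gene level, a scaling that moved all genes by -0.58, and under it all measured genes gave 378 higher and 2382 lower in place of 817 and 791. At day 1 that scaling gave 236 higher and 681 lower genes in place of 351 and 503, and for day 5 against day 1 it gave 419 and 1684 in place of 759 and 811.

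Of 7 measured receptor genes 1 was higher at day 5 and 2 lower, beside 6.78% and 6.56% of all measured genes. Acvr2b, a type II receptor gene that activins and some BMPs use, had log2 values of 4.93, 5.55, 6.03, 6.52 and 6.43 and was 1.5 higher at day 5. Acvrl1, the ALK1 type I receptor gene, had 7.15 at day 0 and 6.09 at day 5 (-1.06). Eng, its co-receptor endoglin, had 7.49 and 6.19 (-1.30). Both are best known from endothelium, whose marker Cdh5 was likewise lower (6.96 and 5.67), while Vwf was 1.87 higher. Kdr was at 5.51 at day 0, 6.21 at day 3 and 5.30 at day 5 (-0.21). Pecam1, Tie1, Tek and Emcn were below the filter. The 4 measured of 8 endothelial markers, Eng among them, had mean levels of 6.44 at day 0, 5.87 at day 1 and 6.21 at day 5. The part of endothelial cells in these values was not tested. The BMP co-receptor gene Rgmb had log2 values of 8.20, 7.07, 7.32, 7.89 and 8.07, a dip at day 1 (-1.13) that was nearly gone at day 5 (-0.13).

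Among extracellular and membrane antagonists, 1 of 5 measured genes was higher at day 5 and 0 lower, beside the same 6.78% and 6.56%. Twsg1, whose product binds BMPs together with chordin, had log2 values of 7.97, 7.98, 8.79, 9.57 and 9.67, and was 1.71 above day 0 at the last sampling. Its increments came after day 1, as those of Bmp2 did. Bambi, a pseudoreceptor gene that is itself a BMP target, had 7.66, 6.38, 6.91, 6.91 and 7.28, again lowest at day 1 (-1.27). Noggin, chordin and follistatin genes (Nog, Chrd and Fst) were below the filter, and Grem1 was between 4.71 and 5.55.

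Of 14 intracellular regulators 1 was higher at day 5, 1 lower and 12 neither, counts near the 6.78% and 6.56% of all measured genes, with a median of -0.11. Smurf1, the ubiquitin ligase gene whose product marks SMAD1 and SMAD5 for degradation, was higher from day 1 on, with log2 values of 7.88, 9.13, 9.30, 9.36 and 9.15 (1.27 at day 5). Its relative Smurf2 was between 7.79 and 8.15. The SMAD corepressor genes were lower, Ski at 9.21 and 8.14 on days 0 and 5 (-1.06) and Skil at 9.30 and 8.34 (-0.96, after -1.33 at day 1).

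In the list of known BMP targets, 7 of 16 genes with a row were measured, and 3 of them were at least 2-fold lower at day 1, Id1, Id3 and Bambi, beside 4.17% of all measured genes. At day 5 only Id1 was, beside 6.56%. The median of the 7 was -0.87 at day 1 and -0.35 at day 5, beside 0 for all measured genes, but 4 of the 7 are members chosen for this account. The liver iron hormone gene Hamp and the skeletal targets Dlx5, Msx2 and Sp7 were below the filter.

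Of the 3 E protein genes, whose products Id proteins hold off DNA, 1 passed 2-fold. Tcf4 had log2 values of 9.96, 8.93, 8.79, 8.91 and 8.93, a step of -1.03 at day 1 that was the same at day 5. Tcf12, between 9.42 and 9.86, and Tcf3, between 6.79 and 7.53, differed at day 5 by less than the yardstick. Mitf, the osteoclast factor to which Id2 binds, was at 9.66 at day 0, highest at day 2 (10.55) and at 9.70 at day 5. In the whole list of 15 such factors 1 was higher at day 5 and 2 lower, beside 6.78% and 6.56% of all measured genes. The haematopoietic factor gene Lyl1, an E protein partner, was at 7.77 at day 0, 5.6 at day 1 and 5.90 at day 5 (-1.87), and the repressor gene Bhlhe40 was at 7.07, 9.43 and 9.99 (2.92). At day 1 alone Bhlhe41 was lower (-1.04) and Myc higher (1.25), and at day 5 these were at -0.44 and -0.78.

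**Figure D5:**
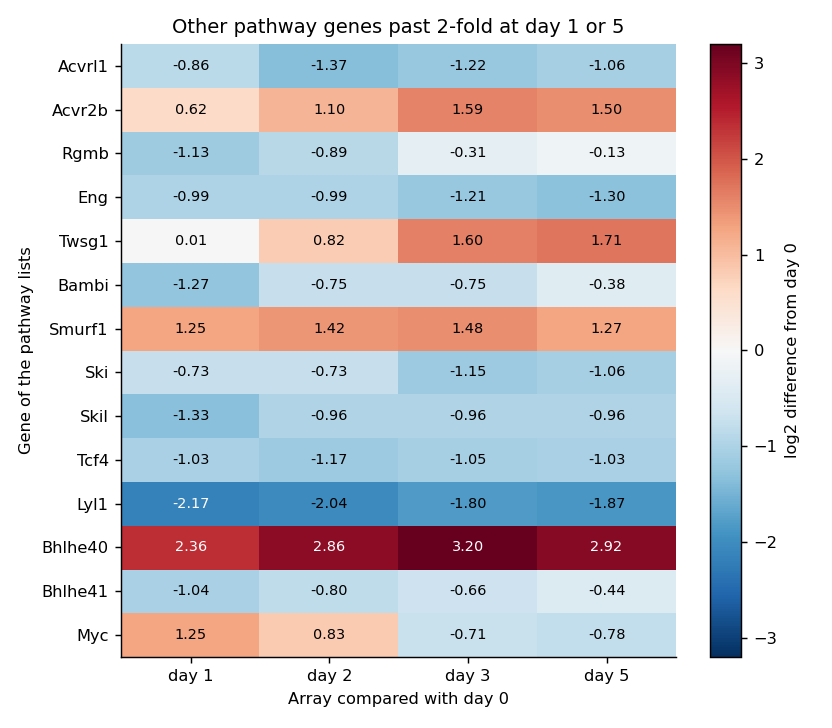
log2 difference from day 0 at days 1, 2, 3 and 5 for the measured genes of the 7 pathway lists, other than the 9 members, that passed 2-fold at day 1 or day 5; red is higher and blue lower, 1 array per day. Twsg1, Acvr2b, Smurf1 and Bhlhe40 end at 1.71, 1.5, 1.27 and 2.92, and Rgmb and Bambi start at -1.13 and -1.27 and end at -0.13 and -0.38.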

How the data were processed

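The deposited log2 values, 1 column per array, were made by the authors by RMA (oligo package, R 3.4.0), per the submitters' processing notes; RMA subtracts background, quantile-normalises the arrays and summarises probes by median polish. Neither the summary level nor the build is given in the sources used here. Quantile normalisation hides a shift common to all genes, and median polish gives exact ties. Arrays were assigned to days from the labels. Of 41345 rows 23521 named 1 gene, 1814 several and 16010 were unlisted; the brightest row of a gene was used. Differences between single arrays were counted at 1 (2-fold) over 12049 genes with a mean of at least 4.89, and no test was run. The rule named every member, each measured list gene past 2-fold at day 1 or day 5, further genes of the members' families, and the 3 nearest profiles; all other list genes printed, and the markers, were chosen after their values were seen. Members and lists were chosen with earlier results of these data known. The counting, profile search and motif search were tested on simulated data. Alternatives covered scaling, row choice, size, level filter and days. Python 3.11.15, numpy 2.4.6, pandas 2.3.3 and matplotlib 3.10.9 were used.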

Additional observations from a re-analysis of the deposited data

How the results depend on the processing

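Counts of members kept within 1.5 times their value under most alternatives. Averaging the rows of a gene could not change them, as each member had 1 row, and dropping the level filter could add only Bmpr1a. With 1.5-fold in place of 2-fold, 5 members counted at day 1 against day 0 (Bmpr2, Smad6, Id1, Id2 and Id3, all lower), 5 at day 5 against day 1 (all higher) and 17 pathway genes at day 5 against day 0. With the level filter at the 75th percentile of rows, which leaves out Bmp2 and Id1, these were 1 (Id3), 1 (Id3) and 5, and 0 members counted at day 5 against day 0. The shares of all measured genes counted at 1.5-fold or at the higher filter were not taken. Counts at those settings therefore cannot be read against a background. Centring arrays on the reference gene level left 1 member (Bmp2) at day 5 against day 1 and gave 17 pathway genes. That level moved by 0.58 between days 0 and 5, although the median difference of the same 13 genes was 0.03; shifting arrays by this median, an alternative chosen after seeing the data, changed 0 member counts. With day 1 in place of day 0, 6 pathway genes counted, and the members counted were Bmp2 and Id3, with Id1 at -0.06. With day 3 in place of day 5, Bmp2 was at 1.35 and Id1 at -2.68. The differences of Bmp2 and Id1 at day 5 and of Id1 and Id3 at day 1 were each past 2-fold. They kept their sign under every alternative run on them, but Id1 at day 5 was only at -0.06 with day 1 in place of day 0. For the day 1 differences only scaling and row averaging were run, so their sign could not have changed. Scaling moved the day 5 and day 1 differences by at most 0.58, so it could not have reversed them. The difference of Id3 at day 5 (-0.31) was 1.22 with day 1 in place of day 0. No paired analysis was possible because each day had 1 array, and no array could be left out within a day. Signal over background limits Bmp2 before day 3 and Bmpr1a, Smad9 and Id4 throughout.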
